A study of Acipenser schrenckii with 5 samples.

Results

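Among the 663 miRNA probes on the arrays, 114 carried a miR number of 700 or more, with miR-731 left out. The rule takes them by that number in the probe name, over all species and arms, and uses no measured value. They cover 84 numbered families. By the species code that starts each name, 50 probes were designed on zebrafish (dre), 39 on channel catfish (ipu), 13 on Atlantic halibut (hhi), 8 on common carp (ccr) and 4 on medaka (ola). The arrays were single-colour (Cy3) chips hybridized with small RNA from 1 Amur sturgeon (Acipenser schrenckii) of 5 months, whose heart, muscle, brain, spleen and liver were sampled. Each tissue had 1 array, and the tissue labels were the only labels that set the samples apart (the brain label is spelled Bain). There is thus no replicate check of any difference between tissues, no p-value was computed, and the spread over the 5 spots of a probe is a technical error only.

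A miRNA is a short RNA that guides a silencing complex to messenger RNAs, mostly through its seed, the bases from 2 to 8. A hairpin precursor is cut into a duplex with a 5p and a 3p arm, of which often only one is loaded and kept. Numbers are given to miRNA families in the order of their discovery, so low numbers hold many families shared by most vertebrates, whereas high numbers were given later, often to families known from few species. The name "fish-lineage" holds only in part for this set, because miR-1306 and miR-7641, for example, are also listed in human. Which other members are listed outside fish was not checked here.

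The sequences below are those of the probes that carry the results, as the array files give them for the miRNA strand, with the seed in capitals. The first lines are the 9 members that reached a normalized intensity (Signal, defined below) above 500, and the rest are members of named families at lower values.
dre-miR-2188-5p: aAGGUCCAaccucacaugucc
ola-miR-1388-3p: aUCUCAGGuucgucagcc
dre-miR-1388-3p: aUCUCAGGuucgucagcccaug
ipu-miR-1388: aUCUCAGGuucgucagcccauga
dre-miR-1388-5p: aGGACUGUccaaccugagaaug
dre-miR-2184: aACAGUAAgaguuuaugugcu
ipu-miR-7550: aUCCGGCUcgaaggacca
hhi-miR-7641: cUGAACACgcccgaucucgu
ipu-miR-737: gUUUUUUUagguuuugauuuuu
ccr-miR-730: uCCUCAUUgugcaugcugugug
dre-miR-730: uCCUCAUUgugcaugcugugugu
dre-miR-2195: aGAUUGGGgugaguuagggug
dre-miR-724: uUAAAGGGaauuugcgacuguu
ola-miR-1306: cCACCUCCccugcaaacgucc
ipu-miR-7571: cAGGCUACaugacaccacccuga
ipu-miR-7556: uACAGUAAcuugaagacaacgu
The 3 probes of the miR-1388 3p arm start with the same 18 bases and differ only in their 3′ end, and the pair of miR-730 probes differs by 1 terminal base. Altogether 13 pairs of members were nested in this way, involving 23 probes, and such probes hybridize with the same RNA and are not independent readings of a tissue. The seed of dre-miR-2184 (ACAGUAA) was shared with ipu-miR-7556, and no other probe on the array held it.

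Density, the median intensity of a spot before background subtraction and normalization, was read against the 361 spots without a probe (empty spots) of the same array. Their median was 51.96 in heart, 69.81 in muscle, 72.94 in spleen, 77.59 in brain and 98.41 in liver. The liver array was the noisiest, with an SD of 58.51 over its empty spots and a brightest empty spot at 668.7. The muscle array had the smallest SD (4.906) and the dimmest highest empty spot (85.42), whereas by a robust SD, which bright single spots hardly move, heart was lowest (4.255, against 5.367 in muscle). The same height above background was therefore counted as detection in muscle and not in liver. A probe was detected where at least 50% of its spots lay more than 3 SD of the empty spots above the nearest empty spots, with a pixel SD under 0.5 of that height above background.

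Most of the high-number miRNAs were not detectable in any of the 5 tissues. At least 1 tissue gave detection for 31 of 114 (27.19%), against 71.9% of all 663 probes and 81.24% of the 549 other probes. Detection in all 5 tissues was found for 4 members, namely dre-miR-2184, dre-miR-2188-5p, ipu-miR-7550 and hhi-miR-7641, against 25.6% of all probes. In liver, dre-miR-2184 (439.5), dre-miR-2188-5p (540.8) and ipu-miR-7550 (513.1) lay below the brightest empty spot (668.7), each with 4 of 5 spots passing. In liver 4 members were detected, against 29.7% of all probes. Spleen had 15 detected members beside a share of 50.2% over all probes, and brain had 13 beside 55.8%. Muscle had 28 beside 65.0%, and heart had 14 beside 52.0%. Among the 549 other probes the shares were 35.15% in liver, 65.03% in brain, 57.92% in spleen, 60.29% in heart and 73.41% in muscle, against 3.509%, 11.4%, 13.16%, 12.28% and 24.56% of the members. The members' share was thus below that of the other probes on each of the 5 arrays. Of the 84 families, 26 had at least 1 detected probe, and the families of the other probes were not counted.

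Detection was spread over the whole number range. Of the 29 probes with numbers below 1000, 8 were detected, as were 5 of 10 from 1000 to below 2000, 6 of 19 from 2000 to below 3000, 1 of 12 from 3000 to below 7500 and 11 of 44 from 7500 upwards. Probes whose exact sequence the array files list for 2 or more fish species were detected in 8 of 11 cases. Those with 1 listed species were detected in 23 of 103. This list does not count the species that have the family. Each of the 3 miR-1388 3p probes has 1 listed species, although they come from zebrafish, catfish and medaka. Over all 663 probes, not split by number or species, the share detected was 71.9%. Whether the other probes show the same split was not counted. The median length was 22 bases in detected and undetected members alike, and the median share of G and C was 50% in detected members, 47.62% in undetected members and 43.48% in the other probes. These are counts over probes that share families and sequences, given as a description.

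For comparisons between tissues, Signal is the median over the 5 spots after background correction and normalization between arrays. A Signal above 500 in at least 1 tissue was reached by 9 members, against 48.6% of all probes. At least 3-fold above every other tissue stood 4 members, against 14.2% of all probes, and all 4 were highest in spleen: dre-miR-2188-5p and the 3 probes of the miR-1388 3p arm. Where a miRNA was not detected in a tissue, that tissue was set to the lowest Signal detected on its array if this was higher, which gives a lower bound. In liver this limit was 364.5, against 28.82 to 64.72 on the other 4 arrays, and liver set the bounds of the miR-1388 probes. For ipu-miR-1388 and dre-miR-1388-5p the bound was this limit. For ola-miR-1388-3p and dre-miR-1388-3p it was their own liver Signal (415.2 and 410.4), which was higher.

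In spleen, dre-miR-2188-5p had a density of 4850 (spots from 4727 to 5167), which was the highest of its 5 tissues. Its density was 1930 in heart, 660.6 in brain, 540.8 in liver and 453.4 in muscle. The 5 spleen spots did not overlap with the spots of any other tissue, of which the brightest was 1970 in heart. Signal was 5878 ± 281 (SD over 5 spots) for spleen, 1017 ± 58.6 for heart, 901.8 ± 76.3 for muscle, 510.3 ± 37.3 for brain and 1213 ± 342 for liver. Spleen was thus 4.85 ± 1.39-fold above liver and 5.78 ± 0.43-fold above heart, where the error is that of the spots. The wide error against liver came with a liver spot at 248.4. The other arm of the same hairpin, dre-miR-2188-3p, was not detected, with densities from 57.99 to 93.80 over the 5 arrays.

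miR-1388 was detected from both arms of its hairpin and was highest in spleen on all 4 probes. The density of ola-miR-1388-3p was 1200 in spleen, 453.8 in heart, 243.8 in liver, 147.3 in brain and 132.9 in muscle. In dre-miR-1388-3p the values were 1116 in spleen, 448.1 in heart, 242.7 in liver, 122.7 in muscle and 120.6 in brain. In ipu-miR-1388 they were 1062 in spleen, 398.8 in heart, 218.3 in liver, 130.2 in muscle and 112.9 in brain. By density, spleen, heart and liver kept this order on the 3 probes, but liver and brain did not pass the detection limit on any of them. In Signal, liver (415.2, 410.4 and 352.8) stood above heart (318.9, 318.7 and 292.4), so the order of heart and liver was not settled. The Signal of the 3 probes in spleen was 2101 ± 112, 2006 ± 143 and 1911 ± 78.0, at least 5.06-fold, 4.89-fold and 5.24-fold above liver. Against heart, which was detected, the ratios were 6.59 ± 0.44, 6.29 ± 0.66 and 6.54 ± 0.49. On the opposite arm, dre-miR-1388-5p had a density of 371.7 in spleen (spots from 343.4 to 396.9), 202.9 in heart, 123.6 in liver, 102.7 in brain and 97.33 in muscle. Its Signal of 659 ± 61.4 in spleen was at least 1.81-fold above liver and 3.53 ± 1.04-fold above heart, in which 1 spot at 94.81 lay far below the other 4. The heart density lay below the brightest empty spot of that array (219.4). The bound against liver fell to 1.31 with plain background subtraction and to 1.06 with quantile normalization, and the Signal did not exceed 500 with quantile normalization, without normalization or with loess over pairs of arrays.

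The size of the spleen excess depended on the normalization. Without normalization between arrays, heart was the highest other tissue, and spleen stood 2.54-fold above it for dre-miR-2188-5p and 2.60-fold to 2.81-fold for the 3 probes of the miR-1388 3p arm, so that 0 members passed 3-fold. Spleen remained the highest tissue of these 4 probes, and heart that of dre-miR-2184 (below), under each of the 5 other ways of computing Signal that were tried. With a normalization, the highest other tissue was liver, and the lowest ratios were those of plain background subtraction. They were 4.45 for dre-miR-2188-5p and, as lower bounds, 3.80 for ola-miR-1388-3p, 3.61 for dre-miR-1388-3p and 3.53 for ipu-miR-1388.

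Blood cell miRNAs were also highest in spleen by summed Signal. The red blood cell miRNAs miR-144 and miR-451 had summed Signals of 17384 (5 of 5 probes detected) and 19289 (1 of 1) in spleen, against 727.6 to 2185 and 2998 to 6916 in the other tissues. The white blood cell miRNAs miR-142 and miR-223 summed to 44239 (6 of 8 probes detected) and 7073 (2 of 3) in spleen, against 3767 to 22379 and 717.0 to 4155 elsewhere. All 4 were thus highest in spleen by summed Signal, and none was at 0 in any tissue. Before normalization, the highest density of a miR-142 probe was 9407 in heart and 9164 in spleen. The highest density in spleen was 5640 for miR-223, 24474 for miR-451 and 4318.5 for miR-144, against 5535, 16688 and 782.1 in heart. The part of these 4 miRNAs in the values of dre-miR-2188-5p and miR-1388 was not tested, and more cells of a type and more RNA per cell cannot be told apart in such samples.

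dre-miR-2184 was highest in heart, with a density of 2953 (spots from 2727 to 2979). The other densities were 1201 in brain, 439.5 in liver, 350.6 in muscle and 254.5 in spleen, and the heart spots did not overlap with any of them. In Signal, heart (1761 ± 83.7) was 1.52 ± 0.12-fold above brain (1156 ± 69.3), with 964.7 ± 220 in liver, 652.9 ± 37.4 in muscle and 311.5 ± 26.1 in spleen. Under the 5 other ways of computing Signal the ratio to the highest other tissue was between 1.54 and 2.56, the latter without normalization. The probe with the same seed, ipu-miR-7556, followed another pattern and was detected in muscle only, at a density of 131.0 (spots from 116.8 to 153.8) and with 107.7 in liver, 77.24 in brain, 71.06 in spleen and 50.87 in heart. This pair of probes, which shares a seed but differs in the remaining bases, thus read differently on these arrays.

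ipu-miR-7550 and hhi-miR-7641 were detected in every tissue, although ipu-miR-7550 lay below the brightest empty spot of the liver array (668.7). The density of ipu-miR-7550 was 2143 in brain, 1123 in muscle, 1008 in heart, 624.1 in spleen and 513.1 in liver (spots from 323.4 to 1417). Its Signal was highest in muscle (2346 ± 125), which was 1.30 ± 0.11-fold above brain (1801 ± 112). The order of muscle and brain turned without normalization, where muscle was 0.511 of brain, so no highest tissue was settled for this miRNA. Its sequence ends in cca, the letters that also close mature transfer RNAs, and whether transfer RNA fragments reach the probe was not tested.

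The density of hhi-miR-7641 hardly differed between tissues, at 3522 in liver, 3848 in brain, 3260 in heart, 3769 in muscle and 2766 in spleen, which is a range of 1.39-fold. The Signal was 8220 ± 910 in muscle, 7958 ± 1184 in liver, 2622 ± 166 in brain, 2522 ± 72.6 in spleen and 1392 ± 270 in heart, so the spread over tissues arose with the normalization. Muscle and liver did not differ beyond their spot error (1.03 ± 0.19-fold), and their order turned under plain background subtraction (0.916) and quantile normalization (0.833). This miRNA also shared a run of 14 bases, in capitals below, with one of the 6 control probes for zebrafish 5S ribosomal RNA.
hhi-miR-7641: cugaacACGCCCGAUCUCGU
dre-5S-b1: uACGCCCGAUCUCGUccgaucu
The control probe dre-5S-b1 had densities of 7273 in muscle, 6908 in heart, 6331 in brain, 5697 in liver and 4963 in spleen, and was thus bright on each array with a range of 1.47-fold. The share of the hhi-miR-7641 intensity that came from 5S ribosomal RNA was not tested.

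miR-737 was read by the catfish probe only. ipu-miR-737 was detected in 4 tissues, with a density of 631.5 in brain (spots from 561.9 to 755.1), 149.1 in spleen, 229.2 in muscle and 348.8 in heart. In liver it was not detected, since only 1 of its 5 spots passed the limit. The brightest liver spot was at 1532, beside a median of 167.0. The Signal of 613.1 ± 96.7 in brain was 1.52 ± 0.25-fold above muscle (403.8 ± 14.3), and taking the mean over spots in place of the median put liver above brain (0.731). With plain background subtraction and quantile normalization brain was at least 1.15-fold and 1.01-fold above liver, and in these and with loess over pairs of arrays the Signal did not exceed 500. The zebrafish and halibut probes of the same number were not detected, with densities from 51.82 to 101.0 and from 55.49 to 94.57. Their sequences are complementary to part of the catfish one. Whether they come from the opposite strand or from the other arm of the hairpin was not tested. In the halibut sequence 16 bases are complementary, as shown in capitals.
ipu-miR-737: guuuuUUUAGGUUUUGAUUUUu
hhi-miR-737: agAAAAUCAAAACCUAAA
The catfish sequence had 18.18% G and C, the lowest of the 114 members.

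miR-730 was detected in 4 tissues by both of its probes, at low values. The density of dre-miR-730 was 247.2 in brain, 191.0 in spleen, 173.3 in heart, 150.2 in muscle and 143.3 in liver, where it was not detected. The density of ccr-miR-730 was 138.9 in brain, 118.2 in spleen, 105.7 in muscle, 93.69 in heart and 118.4 in liver, again without detection there. The heart densities of both probes lay below the brightest empty spot of that array (219.4). So did the brain density of ccr-miR-730 on the brain array (218.4). Both probes were highest in brain by density and in spleen by Signal, so their highest tissue was not settled. In Signal, spleen was 1.40 ± 0.17-fold (dre) and 1.41 ± 0.25-fold (ccr) above muscle, with liver left out. The liver limit of 364.5 did not allow a fold against liver for either probe.

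dre-miR-2195 was detected in brain, muscle and heart, with a density of 192.4 in brain (spots from 178.2 to 203.4), 91.29 in muscle, 90.25 in heart, 95.81 in liver and 84.36 in spleen. Its brain and heart densities lay below the brightest empty spots of those arrays (218.4 and 219.4). Its Signal in brain (125.5 ± 9.17) was 1.88 ± 0.23-fold above heart, and the liver limit of 364.5 did not allow a fold against liver. ipu-miR-7571 was not detected, with 62.80 in heart, 79.25 in spleen, 88.37 in muscle, 100.1 in brain and 113.4 in liver. The muscle value lay above the brightest empty spot of that array (85.42), but only 2 of 5 spots passed the limit. Of the pair of nested miR-1306 probes, ola-miR-1306 passed the detection limit in muscle only, at 85.45 with 3 of 5 spots, beside a brightest empty spot of 85.42. Its other densities were 113.0 in liver, 102.1 in brain, 86.96 in spleen and 58.69 in heart. dre-miR-1306 did not pass the limit in any tissue, with 103.7 in liver, 88.33 in brain, 83.92 in spleen, 79.72 in muscle and 58.82 in heart. miR-1306 was therefore at the edge of detection on these arrays.

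A further group, chosen after their values were seen, was detected in at least 1 tissue, with densities that differed between tissues. dre-miR-724 had a density of 470.2 in brain (spots from 351.9 to 474.0), 118.0 in heart, 105.3 in liver, 82.79 in muscle and 77.69 in spleen. It was detected in brain and heart, with a Signal in brain of 406.9 ± 54.5, at least 1.12-fold above liver and 4.08 ± 0.71-fold above heart. dre-miR-7147 was detected in 4 tissues, with a density of 238.8 in brain, 112.7 in spleen, 103.7 in heart and 89.25 in muscle. Its density in liver was 116.1, without detection. The heart densities of dre-miR-724 and dre-miR-7147 lay below the brightest empty spot of that array (219.4). Both arms of miR-727 were detected in spleen, at 149.5 (3p) and 122.0 (5p), and the 3p arm also in muscle at 98.98. In liver their densities were higher (193.1 and 146.3) but did not pass the limit of that array, so no highest tissue was settled for either arm. dre-miR-2187-3p was detected in brain only, at 137.2, whereas its 5p arm was not detected. The value of 137.2 lay below the brightest empty spot of the brain array (218.4). This detection did not hold under all 6 alternative limits. Of the 10 hairpins with a probe for each arm, both arms were detected for 2 (miR-727 and miR-1388), the 5p arm alone for 1 (miR-2188), the 3p arm alone for 1 (miR-2187) and neither for 6. The arms of hairpins among the other probes were not counted, so these numbers have no background to be read against.

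A single tissue gave detection for 14 members (12.28%), against 11.6% of all probes. Muscle was that tissue for 12 of them (10.53% of the members), against 6.64% of all probes. Detection in muscle only does not mean the highest value in muscle. The SD of the empty spots was smallest there (4.906, against 17.64 in brain). With a robust SD, 23 members were detected in muscle and 27 in brain. Among the 12, Signal was highest in spleen for ola-miR-1306 and hhi-miR-7789, in brain for dre-miR-2192 and in liver for ipu-miR-7562. For the others it was highest in muscle. The muscle densities of the 12 ran from 85.38 (dre-miR-2193) to 131.0 (ipu-miR-7556), beside a brightest empty spot at 85.42. Of the undetected members, 43 of 83 exceeded the 95th percentile of the muscle empty spots (79.35), against 20 of 83 in brain, 15 of 83 in heart, 6 of 83 in spleen and 0 of 83 in liver. This percentile is of single spots, whereas the density of a member is a median over 5 spots, and the other probes were not counted. On each of the 5 arrays the undetected members had a higher median than the empty spots. These medians were 79.47 against 69.81 in muscle, 82.69 against 77.59 in brain and 56.13 against 51.96 in heart. In spleen they were 75.81 against 72.94, and in liver 105.8 against 98.41. With a limit of 5 SD, 3 of the 12 were still detected, namely ipu-miR-7547 (111.7), ipu-miR-7556 (131.0) and hhi-miR-7796 (112.4). The skin miRNAs miR-203 and miR-205 were bright in the muscle sample, with summed Signals of 15832 (6 of 7 probes detected) and 23615 (3 of 3), against 179.3 to 452.3 and 87.29 to 690.2 in the other samples. Their part in the values of the members detected in muscle only was not tested.

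The 83 members without detection lay within or just above the range of the empty spots. Their density ran from 50.29 to 86.06 in heart (median 56.13), from 73.64 to 88.37 in muscle (79.47), from 68.58 to 85.97 in spleen (75.81), from 72.49 to 112.6 in brain (82.69) and from 90.97 to 166.7 in liver (105.8). The brightest empty spot was exceeded by 3 of them in muscle and by 0 on the other 4 arrays. The highest densities among them were all in liver, at 166.7 for ipu-miR-7554, 122.6 for ipu-miR-7566 and 121.7 for ola-miR-1788, which is below the 95th percentile of the liver empty spots (231.2). On the other 4 arrays ipu-miR-7554 lay at 54.01 (heart), 73.84 (spleen), 79.76 (muscle) and 83.56 (brain). ipu-miR-7566 lay at 58.82 (heart), 69.63 (spleen), 79.10 (muscle) and 90.86 (brain), and ola-miR-1788 at 55.63 (heart), 72.00 (spleen), 81.35 (muscle) and 87.44 (brain). None of these 12 values exceeded the brightest empty spot of its array. A value in this range says that the miRNA was not detectable with these probes, and not that it was absent.

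One undetected member was the complement of a bright miRNA. ipu-miR-7565 was complementary over 16 to 19 bases to the 5 probes of miR-24 on the array, shown in capitals for the catfish probe.
ipu-miR-7565: UUCCUGCUGAACUGAGCCAgu
ipu-miR-24: UGGCUCAGUUCAGCAGGAAcagg
The density of ipu-miR-7565 was 55.69 in heart, 82.81 in muscle, 79.41 in spleen, 88.56 in brain and 97.62 in liver. ipu-miR-24 was detected on every array, with densities from 493.7 (liver) to 1388 (heart). The arrays thus read ipu-miR-24 and not the sequence complementary to it. For miR-737, too, the complementary sequences read differently.

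The tissue labels were checked on known tissue miRNAs outside the 114. Summed Signal was highest in the labelled tissue for miR-122 (liver), miR-9 and miR-124 (brain), miR-206 (muscle) and miR-499 (heart, with lower values in muscle). miR-1 and miR-133, which skeletal muscle and heart share, were highest in muscle (63012 and 225428). In heart miR-1 summed to 9451, above the other 3 tissues, whereas miR-133 summed to 34594 there and to 46883 in liver, where 1 of its 12 probes was detected. The pancreas miRNA miR-216 was bright in liver (20092) and spleen (7213) and summed to 50.95 to 443.8 in the other samples. miR-217 was likewise highest in liver (3996) and spleen (1464), whereas miR-375 summed to 1319 in liver, 1034 in muscle and 375.9 in spleen. Their part in the liver and spleen values of the members was not tested.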

How the data were processed

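The authors deposited 1 scanner file per tissue, which gives for each spot the median pixel intensity (density) and the pixel SD, as linear values that were neither background subtracted nor normalized. Per the labels, small RNAs were isolated from total RNA by size, tailed and tagged. Per the methods, the chips were scanned with a GenePix scanner and digitized with Array-Pro. The deposited table of processed values was not used here. Intensities were corrected by normexp (offset 50) and normalized by cyclic loess against the mean array (3 iterations, log2 scale, 3315 probe spots) with limma 3.58.1 in R 4.3.3, and the offset was taken off. Detection used the criteria of the study's methods, with the median of the 20 nearest empty spots as background. The error of a ratio is that of the spot SDs of both tissues. Sequences were compared by edit distance (edlib 1.3.9.post1) in Python 3.11.15 with numpy 2.4.6 and pandas 2.3.3. Detection and tissue calls were also run on simulated data, with levels taken from these same arrays. Right tissue calls were scored only for bright probes, so the simulation does not cover the tissue calls of members near the empty spots. The simulation left out the brightest empty spots and fixed the pixel SD, so it does not test the noise of the liver array.

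Values in all 5 tissues are given for each member with a Signal above 500 or at least 3-fold above every other tissue, for the families miR-730, miR-737, miR-1388, miR-2195 and miR-7571, for miR-2184 and miR-1306 and for the 3 brightest undetected members. For dre-miR-737 and hhi-miR-737, which were not detected, only the range over the tissues is given. The rule for the members uses no measured value, but the set, the lists and the rules were proposed with earlier results of these data known. The alternatives changed the detection limit, the background, the normalization, the summary over spots and the thresholds. The number of arrays, 1 per tissue, limits the precision. No genome was used here, so sequences have no coordinates.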

Additional observations from a re-analysis of the deposited data

How the results depend on the processing

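Of 58 alternative values of the counts, 44 stayed within 1.5 times the reported count. At 5 SD of the empty spots, 20 members were detected in at least 1 tissue and 16 in muscle, and all 20 were among the 31. With a robust SD, 7 were detected in all 5 tissues, 10 in liver and 27 in brain. When all spots had to pass, 1 was detected in all 5 tissues and 1 in liver, in both cases hhi-miR-7641. With the brightest empty spot as the limit, 1 was detected in all 5 tissues, 1 in liver, 8 in brain and 8 in heart. The member detected in all 5 tissues and in liver was again hhi-miR-7641. The same 20 members were detected under each of the 6 alternative limits. For the alternatives in this section only the members were counted, and not the other probes on the arrays. Whether the other probes shared these changes, such as the rise in brain with a robust SD, was not tested.

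At least 3-fold above every other tissue stood 0 members without normalization between arrays, 2 with a fold of 5, and 7 with liver left out of the comparison, an alternative chosen after seeing the data. The 3 added were dre-miR-724, dre-miR-1388-5p and hhi-miR-7641. The loess over pairs of arrays, run for the counts above 500 and 3-fold, and the robust SD at 5 times, run for detection in at least 1 tissue (24), were also chosen after seeing the data and left these counts within 1.5 times. Of the 45 alternative ratios of the 9 members with a Signal above 500, 22 moved by less than the spot error and 21 by more. These include 3 of hhi-miR-7641 below 1 (0.833, 0.916 and 0.98), whose reported ratio did not exceed 1 by more than its spot error. The remaining 2 turned from a ratio that did: ipu-miR-7550 without normalization (0.511) and ipu-miR-737 with the mean over spots (0.731), where 1 liver spot was the cause of the higher mean. The cause of the other changes was not tested. The noise of the liver array limits detection there, and densities near the empty spots have no order. No paired analysis was possible because each tissue has 1 array and no test was run.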

Other observations

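In heart, the highest density of an undetected member was that of dre-miR-736 (86.06, against a 95th percentile of 59.87 over the empty spots). A probe made for a sturgeon miRNA of the study, 4 edits (changed, added or removed bases) from dre-miR-736, was detected in muscle and heart, with a Signal of 308.2 in heart and 61.42 in muscle. Other members lay 5 edits from such a probe. Of these, dre-miR-7149-5p was undetected beside a probe with a Signal from 2632 (spleen) to 5213 (muscle). ola-miR-1388-3p and its partner were both highest in spleen, and dre-miR-2188-3p and its partner were both undetected. Whether such pairs read the same RNA was not tested. The 4 brighter control probes for 5S ribosomal RNA kept a range of 1.45-fold to 1.83-fold over the 5 arrays before normalization.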
